A study of Mus musculus with 8 samples.

Results

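In wild-type (wt) PILECs, a culture of pancreatic islet-like endocrine cells that mouse embryonic stem cells (mESCs) had been differentiated into, H3K4me3 was measured in 1 ChIP-Seq library beside 1 library of input chromatin, 2 of the 8 samples of the series. In these cells 12528 enriched regions were found, and 13305 of 26212 annotated genes (50.8%) had a region within 1 kb of a transcription start site. These are called marked genes below. The wt PILECs came from the wild-type mESC line TC-1, of 129S6/SvEvTac background, and chromatin was precipitated with an H3K4me3 antibody from Upstate after cross-linking with formaldehyde and sonication. The labels call the culture PILECs, while the deposited tag lists of these samples carry EB in their names, and the labels were followed. The series also holds wt mESCs of the same line, and mESCs and PILECs of a menin-null line (3.2N), in which Men1 is knocked out, each with 1 H3K4me3 and 1 input library. Before differentiation both lines were freed of the feeder cells on which they had been grown. No condition had a replicate, so no value carries a spread between cultures, no test between conditions was possible, and the intervals given cover counting error only. A PILEC culture is a bulk sample, in which fewer cells of a type and less mark per cell cannot be told apart.

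H3K4me3, the trimethylation of lysine 4 of histone H3, is deposited at promoters by methyltransferase complexes of the Set1 and MLL families and sits on the nucleosomes beside active start sites. It also occurs at lower levels at CpG-rich promoters that are silent but poised for later use, so its presence is not a measure of expression. In embryonic stem cells most CpG-rich promoters carry the mark, while promoters poor in CpG carry it mainly where their gene is in use. Very wide domains of the mark are known from genes that specify the identity of a cell.

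The H3K4me3 library of wt PILECs held 18773635 tags, which are uniquely placed 36-bp reads, and its input held 19016697. The wt mESC library held 2432377 tags and that of menin-null PILECs 17682677. Levels are given as RPM, tags scaled to the same library total of 1000000, within 1 kb of a start, and 1 tag was worth 0.0533 RPM in wt PILECs. An enriched region was a run of 200-bp windows with at least 10 tags each, against a mean of 1.41 tags, joined over gaps of at most 400 bp. A region had to span 1000 bp or more and be 2 times as dense in tags as the input. Promoters were called high in CpG where a 500-bp window from 500 bp upstream to 2000 bp downstream of a start had an observed to expected CpG ratio of at least 0.6 and a GC content of at least 55%. They were called low where no window reached 0.4, and intermediate otherwise.

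The sequences below are the 200 bases upstream of a start, from the mm9 genome, 5' to 3' on the strand of the gene, with each CG dinucleotide in capitals. They are shown because the share of marked promoters differed strongly between CpG classes, and because some islet regulators were unmarked in spite of a CpG-rich promoter. The first pair belong to marked genes with high CpG promoters: Tubb3 (chr8:125935124-125935323, plus strand), the neuronal beta-tubulin, with 914 H3K4me3 tags and 25 input tags, and Gad1 (chr2:70400756-70400955, plus strand), which makes GABA, with 394 and 10 tags.
Tubb3: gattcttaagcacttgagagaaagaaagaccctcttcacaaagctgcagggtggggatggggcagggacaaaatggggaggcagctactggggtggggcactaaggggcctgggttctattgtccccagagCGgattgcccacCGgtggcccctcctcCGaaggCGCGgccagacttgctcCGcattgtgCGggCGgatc
Gad1: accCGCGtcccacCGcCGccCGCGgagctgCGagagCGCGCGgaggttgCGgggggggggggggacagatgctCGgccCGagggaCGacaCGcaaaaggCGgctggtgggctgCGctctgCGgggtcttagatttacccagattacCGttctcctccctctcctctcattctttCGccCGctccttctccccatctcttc
The next pair belong to islet regulators without a region although their promoters are high in CpG. Pdx1 (chr5:148081335-148081534, plus strand), the pancreatic homeobox factor, had 20 H3K4me3 and 12 input tags, and Neurog3 (chr10:61595638-61595837, plus strand), which starts endocrine differentiation in the pancreas, had 42 and 19.
Pdx1: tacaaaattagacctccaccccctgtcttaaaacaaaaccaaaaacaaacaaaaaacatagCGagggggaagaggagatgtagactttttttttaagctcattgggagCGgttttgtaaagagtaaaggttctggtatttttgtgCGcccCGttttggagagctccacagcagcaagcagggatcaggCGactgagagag
Neurog3: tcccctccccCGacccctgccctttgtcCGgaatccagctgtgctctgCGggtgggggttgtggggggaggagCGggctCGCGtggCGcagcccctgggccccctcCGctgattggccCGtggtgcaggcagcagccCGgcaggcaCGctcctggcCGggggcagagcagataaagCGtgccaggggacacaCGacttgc
The last 3 were low in CpG. Ins1 (chr19:52338613-52338812, plus strand), an insulin gene, had 4 H3K4me3 tags and 18 input tags, and Iapp (chr6:142246743-142246942, plus strand), the amylin gene, had 13 and 11. Masp1 (chr16:23520677-23520876, minus strand), a protease of the complement system, was one of the few marked genes of the low class, with 192 and 25 tags.
Ins1: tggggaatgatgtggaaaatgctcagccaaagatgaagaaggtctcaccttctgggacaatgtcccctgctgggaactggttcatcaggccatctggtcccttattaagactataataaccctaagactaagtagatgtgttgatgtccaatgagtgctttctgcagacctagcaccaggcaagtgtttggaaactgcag
Iapp: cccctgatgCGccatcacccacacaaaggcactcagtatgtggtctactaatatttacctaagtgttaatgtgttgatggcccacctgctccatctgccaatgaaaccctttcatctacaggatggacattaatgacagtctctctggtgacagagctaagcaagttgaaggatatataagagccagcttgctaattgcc
Masp1: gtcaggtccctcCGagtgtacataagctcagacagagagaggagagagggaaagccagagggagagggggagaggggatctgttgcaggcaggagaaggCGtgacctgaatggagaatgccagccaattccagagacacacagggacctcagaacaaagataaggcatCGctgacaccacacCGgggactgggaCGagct
The stretches held 8 and 21 CG dinucleotides at Tubb3 and Gad1, 5 and 14 at Pdx1 and Neurog3, 0 and 1 at Ins1 and Iapp, and 5 at Masp1. Neurog3 and Gad1 both had many CG dinucleotides, and only Gad1 of these 2 was marked.

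Enrichment was strong and mostly at promoters. The regions covered 26.3 Mb, 0.989% of the genome, and held 44.89% of the H3K4me3 tags (95% exact binomial interval 44.86% to 44.91%) against 1.39% of the input tags (1.387% to 1.398%). The median region held 615 tags, 32.8 RPM, and was enriched 32.6-fold over input. Of the 12528 regions, 11486 (91.7%) lay within 1 kb of a start of a protein-coding gene, lincRNA or processed transcript. A further 66 lay at starts of other gene types, 184 touched an exon, 164 lay in introns and 628 between genes. Regions in introns held a median of 8.44 RPM and those between genes 14.4 RPM, both below the 34.4 RPM of regions at starts.

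**Figure D1:**
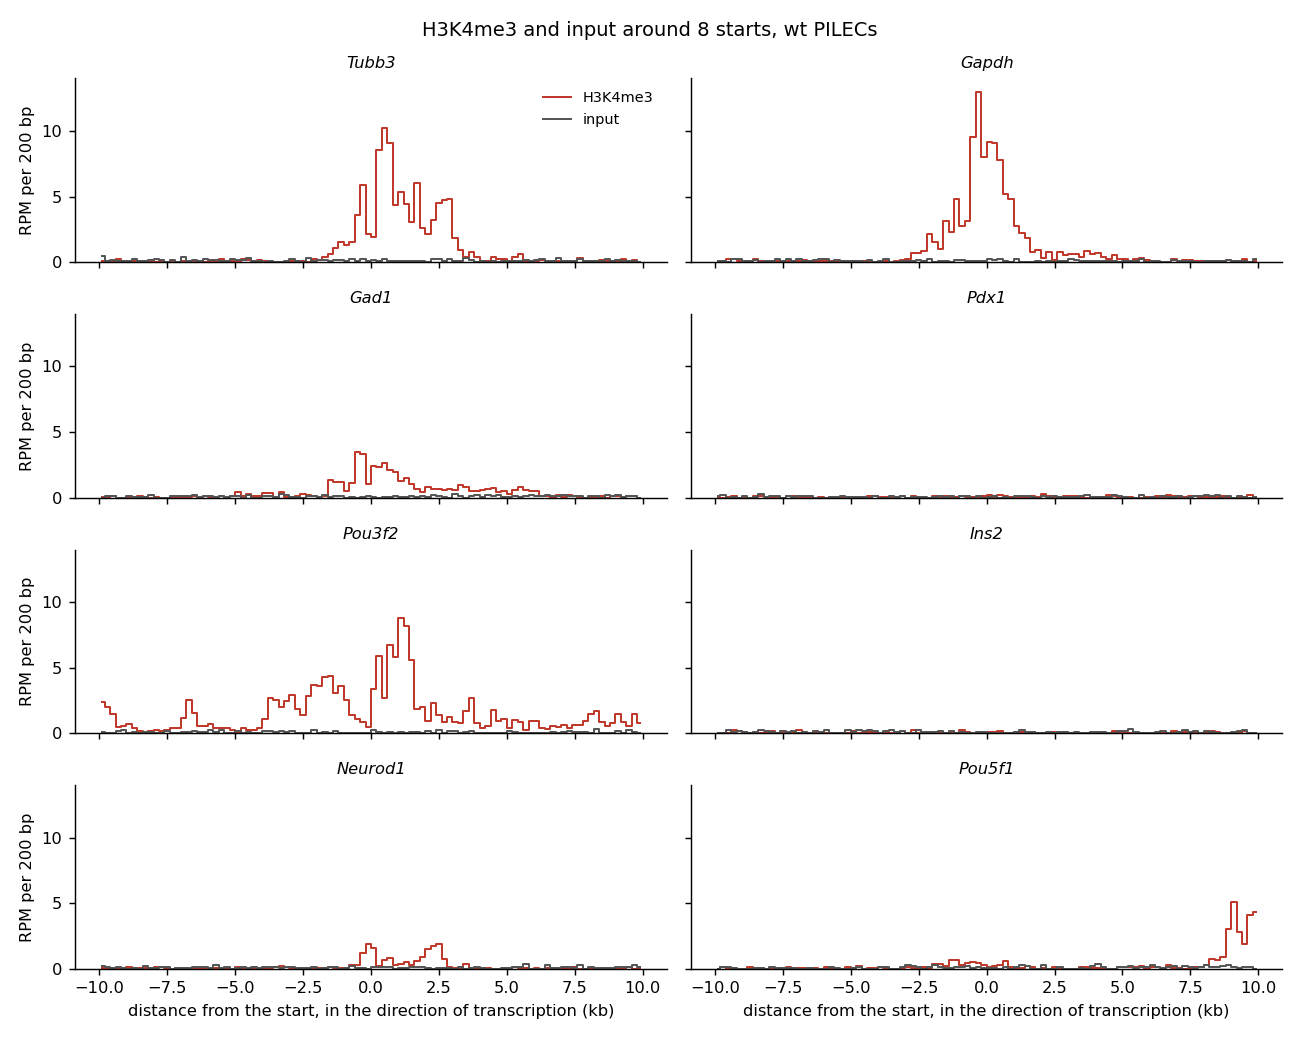
H3K4me3 (red) and input (grey) in RPM per 200-bp window, by distance in kb from the start used, for 8 genes in wt PILECs. Tubb3 and Gapdh reached 10.2 and 13 RPM in their highest window, Pdx1 and Ins2 stayed at 0.266 and 0.213 RPM, at the level of the input, and the high windows in the panel of Pou5f1 lie over 8 kb downstream of its start.

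At single genes the mark took different shapes. At the housekeeping gene Gapdh the 200-bp window with the most tags held 244, against 5 in the highest input window. Tubb3 had a peak of 192 tags and a region of 5400 bp. At Pou3f2, a neural POU factor, the highest window held 165 tags and the region ran over 15200 bp. Gad1 had a lower peak, of 66 tags, within a region of 7600 bp, and Neurod1, a factor of neurons and islet cells, had 36 tags in its highest window. The windows around Pdx1 and Ins2 held at most 5 and 4 tags, where the input reached 5 and 6.

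Around the 11554 marked protein-coding starts of the high CpG class the mean level was highest 175 bp downstream of the start, at 36.3 RPM per kb. A second, lower maximum of 18.99 RPM per kb lay 275 bp upstream, and between them the level fell to 13.7 RPM per kb 75 bp upstream of the start, where the input held 0.450 RPM per kb. The 1759 unmarked starts of this class still showed a small maximum of 4.28 RPM per kb, against at most 0.499 in the input. The 591 marked starts of the intermediate class reached 22.9 RPM per kb.

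**Figure D2:**
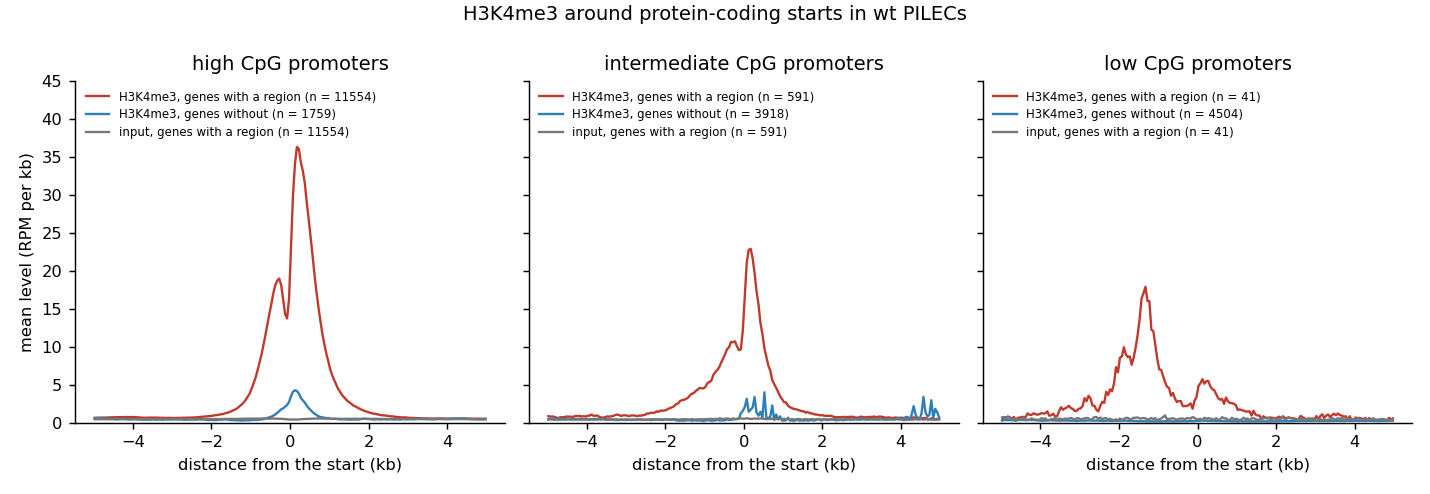
Mean H3K4me3 and input level (RPM per kb, bins of 50 bp) by distance from the start used, in the direction of transcription, for protein-coding genes of wt PILECs in 3 CpG classes. Marked high CpG promoters show a downstream peak of 36.3 RPM per kb and a dip just upstream of the start, and marked low CpG promoters show their maximum upstream of the start. The narrow peaks of the blue line in the intermediate class are shared with the input, which reached 4.54 RPM per kb there.

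In the low class the picture differed. The mean over its 41 marked protein-coding genes was highest 1325 bp upstream of the start, at 17.9 RPM per kb. Of the 58 marked genes of all 3 types in this class, 25 had the region over a start, 28 had a region that also lay within 1 kb of a start of a high CpG gene, and 32 had a region that itself held a CpG-rich window.

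A promoter shared by 2 genes was marked more often. Of 1964 protein-coding genes with a start on the opposite strand within 1 kb upstream, 1876 (95.5%) were marked, with a median level of 51.0 RPM where a single region lay over the start. Of the 20403 other protein-coding genes 10310 (50.5%) were marked, with 32.1 RPM, but 94.1% of the first group and 56.2% of the second were high in CpG. Regions at unpaired starts reached a median of 704 bp upstream and 1134 bp downstream, and 80.3% of them extended farther downstream. At paired starts the medians were 1210 bp upstream and 1019 bp downstream. Where a region covers both starts of a pair, its upstream reach takes in the gap and the downstream side of the partner. The turned order thus follows from the pairing and says nothing more about the mark, and both genes of a pair can count the same region.

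CpG class separated marked from unmarked genes. In the high class 12559 of 14580 genes were marked (86.1%), in the intermediate class 688 of 5903 (11.7%) and in the low class 58 of 5729 (1.012%), so 94.4% of all marked genes were of the high class. The median levels of all genes in the 3 classes were 31.2, 0.586 and 0.426 RPM, with inputs of 0.999, 0.894 and 0.789 RPM. Among marked genes the level also fell with the class, from 34.7 to 17.0 to 6.26 RPM. By gene type 12186 of 22367 protein-coding genes (54.5%), 717 of 1273 lincRNAs (56.3%) and 402 of 2572 processed transcripts (15.6%) were marked.

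Of the 58 marked low CpG genes 41 were protein-coding, and tags were ranked among protein-coding genes only. The lincRNAs, 4 genes with a median of 15.4 RPM, and the processed transcripts were not ranked. Among the ranked genes Ypel4 had the most tags, 567, followed by the kinase Dapk3 with 476. Scn2b, a sodium channel subunit, had 296 H3K4me3 and 16 input tags, and Camk1g, a calcium-dependent kinase, 268 and 28. Glrx (230 and 18), Gpank1 (228 and 13), Klhl10 (227 and 23) and Angptl2 (211 and 22) followed. Dcx, the doublecortin of migrating neurons, had 201 and 12, and Fabp7, the fatty acid binding protein of radial glia, 192 and 28. Among these genes wt mESCs had a region at Dapk3 and Gpank1, with 46 and 33 tags in a smaller library. At Scn2b, Camk1g, Dcx and Fabp7 they had 15, 2, 0 and 2 tags. At Ypel4, Glrx, Klhl10 and Angptl2 they had 13, 17, 16 and 19.

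The 2021 unmarked genes of the high class were no single kind. At 143 of them the input held 3 tags or fewer, so uniquely placed reads hardly reach them. Of the 1759 protein-coding ones, with a median level of 1.86 RPM, 912 had at least 2 times the input level and 125 had a region in wt mESCs. Some held many tags without meeting the rule for a region: Cenpt, a centromere protein, had 700 tags and 22 in the input, and Nfu1, an iron-sulfur cluster protein, 538 and 20. Sfi1, on chromosome 11, had 4624 H3K4me3 tags and also 783 input tags, far above the input elsewhere.

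Short sequences known to bind general promoter factors were also counted. They were searched in the 200 bases upstream of the 5' end of each of 22367 protein-coding genes. GGGCGG or its complement CCGCCC, the GC box, was found in 38.0% of all promoters, in 59.0% of marked and 44.9% of unmarked high CpG promoters. CCAAT or ATTGG was found in 30.6% of all, and in 31.9% and 24.5% of those groups, while in the low class it was found in 21.95% of 41 marked and 30.15% of 4504 unmarked promoters. TATAAA on the strand of the gene, 40 to 20 bases upstream, was found in 2.23% of all promoters, in 0.666% of marked and in 1.99% of unmarked high CpG promoters. These are shares of letter matches and not of bound sites. Of the stretches printed above, those of Tubb3 and Gad1 held the GC box and those of Masp1, which was marked, and of Pdx1, Neurog3, Ins1 and Iapp did not.

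Families of genes that all cells use were marked at shares of 92.05% to 97.06%, against 50.8% of all genes and 86.1% of high CpG genes. Nearly all their promoters were high in CpG: 76 of 79 ribosomal proteins, 48 of 50 proteasome subunits and 33 of 34 aminoacyl-tRNA synthetases. For translation initiation factors the number was 55 of 58 and for the respiratory chain 79 of 88. The difference from the CpG class was not tested. Of the cytoplasmic ribosomal proteins 76 of 79 were marked, with a median of 48.2 RPM, and the 3 others, Rpl3l, Rpl10l and Rpl39l, are tissue-restricted copies with 10 to 16 tags each. Of the proteasome subunits 48 of 50 were marked, and the 2 others were the testis subunit Psma8, with 11 tags, and the thymus subunit Psmb11, with 15. Aminoacyl-tRNA synthetases (33 of 34), translation initiation factors (56 of 58) and the mitochondrial respiratory chain (81 of 88) stood at 38.9 to 43.9 RPM. The highest proteasome subunit was Psmb3 with 1694 tags, and the highest ribosomal protein Rpl7a with 1511.

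**Figure D3:**
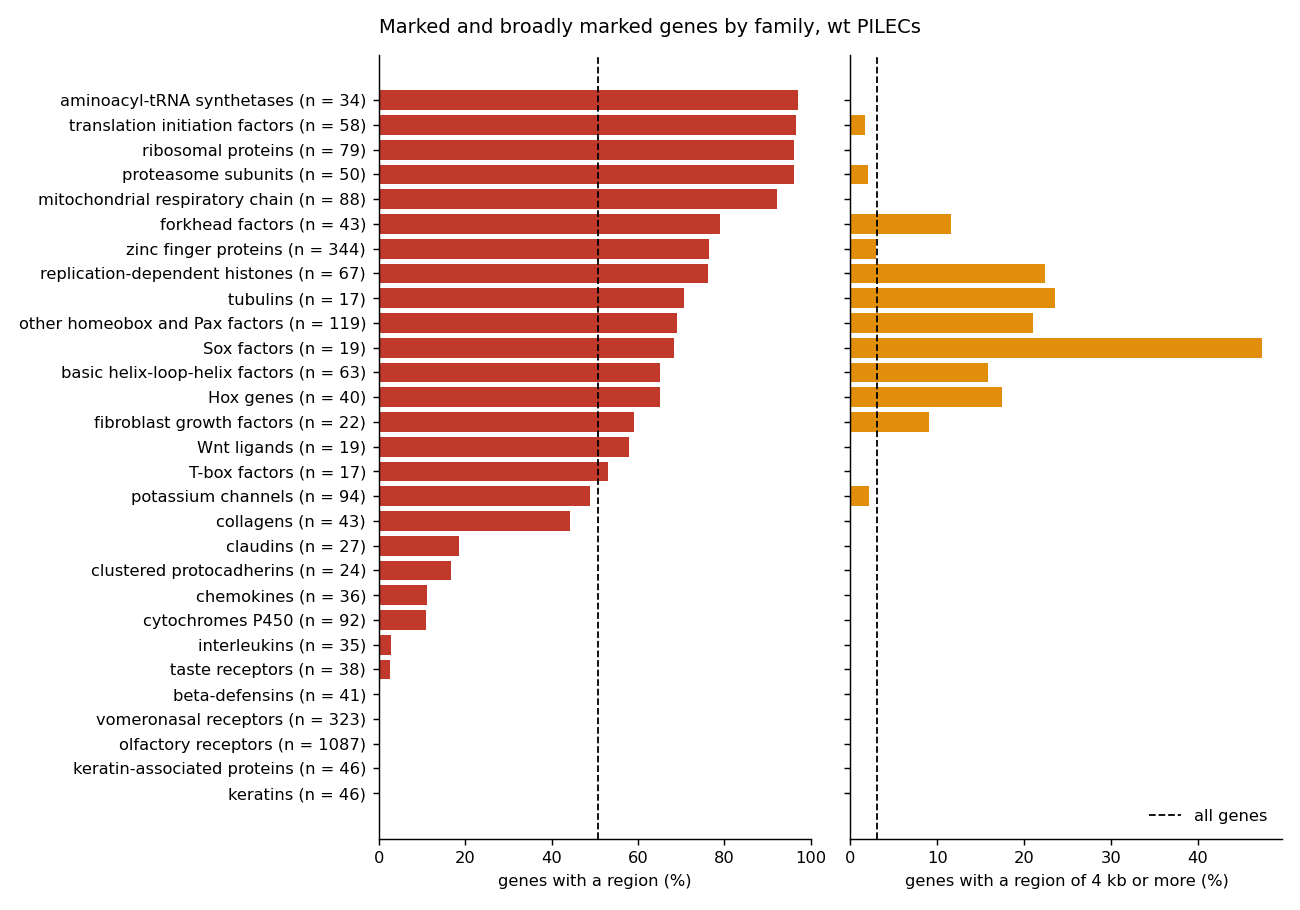
Share of genes with an H3K4me3 region (left, %) and with a region of 4 kb or more (right, %) in wt PILECs, by gene family with the number of genes in brackets, with dashed lines for all 26212 genes (50.8% and 3.09%). Housekeeping families stand above 90% on the left and at 2% or less on the right, while Sox factors reach 47.4% on the right.

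Families of sensory, immune and skin genes were at the other end, and few of them had high CpG promoters: 5 of 1087 olfactory receptors, 2 of 323 vomeronasal receptors, 10 of 46 keratins and 0 of 41 beta-defensins. Of 1087 olfactory receptor genes 0 were marked, with a median of 0.373 RPM against 0.684 RPM in the input. None of 323 vomeronasal receptors, 46 keratins, 46 keratin-associated proteins, 41 beta-defensins or 11 interferon alpha genes was marked. Of these families the vomeronasal receptors included 91 genes with 3 input tags or fewer. Of 38 taste receptor genes only Tas1r1 was marked, and of 35 interleukins only Il17d, with 408 tags. The 92 cytochromes P450 had 10 marked members, with a median of 19.5 RPM. The claudins, proteins of epithelial tight junctions, had 5 marked members of 27.

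The width of the regions ranged from the minimum of 1000 bp to 22200 bp, with a median of 1800 bp, a 95th percentile of 3800 bp and a 99th percentile of 6000 bp. Regions of 4 kb or more, called broad, numbered 625 (4.99%) and held 10.98% of the tags in regions, and 39 regions were 8 kb or longer. A broad region lay at 809 of 26212 genes (3.09%). Wider regions held more tags, as a sum over more windows does: in 5 groups of equal size, from the lowest to the highest RPM, the median width was 1200, 1600, 1800, 2200 and 2800 bp, and 492 of the 625 broad regions were in the highest group. Of the broad regions 618 overlapped a region of any width in menin-null PILECs, which had 441 broad regions, and 475 one in wt mESCs.

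The widest region, chr13:83859801-83882000 in mm9, covered 22200 bp at the non-coding gene C130071C03Rik and held 5349 tags. Those at Pou3f2 (15200 bp), Pou3f3 (13400 bp), Meis2 (13000 bp), Lhx1 (11800 bp), Nr2f1 (11200 bp) and Zic2 (11000 bp), all transcription factors of the developing nervous system, were among the 13 widest. The others were at Gm10742 (13600 bp), at Kdm6b (12800 bp), a histone demethylase gene, at Tnrc18 (12400 bp), at Bahcc1 (12000 bp), at Hoxb5 and Hoxb6 (11000 bp) and at AI854517 (11000 bp). Tubb2b, a tubulin of young neurons, had a region of 10600 bp. In RPM per kb the 13 widest ran from 5.89 at Hoxb5 and Hoxb6 to 21.2 at Tnrc18, with 9.60 at Pou3f2 and 12.8 at C130071C03Rik. Of these only Tnrc18 and Kdm6b, at 20.5, lay above the median of 16.9 over all regions.

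By family, broad regions were most frequent among Sox factors. Of 19 Sox entries 13 were marked and 9 had a broad region (47.4%): Sox11, of young neurons, spanned 9600 bp with 961 tags, Sox2 7800 bp with 503, Sox9 5000 bp with 1052 and Sox21 4000 bp with 627. Sox17 and Sox10, factors of endoderm and of glia and neural crest, had 26 and 13 tags and no region. Broad regions were also found at 7 of 40 Hox entries (17.5%) and 15 of 67 replication-dependent histone genes (22.4%). A region counts at each gene it touches, so neighbours in a cluster can share it, as Hoxb5 and Hoxb6 did, and such counts are not independent. Among ribosomal proteins and the respiratory chain there were 0 of 79 and 0 of 88. In families added after values were seen, broad regions lay at 25 of the other homeobox and Pax factors (21.0%). They also lay at 10 of 63 basic helix-loop-helix factors (15.9%) and 4 of 17 tubulins (23.5%). Of all genes 3.09% had a broad region, and of all high CpG genes 5.28%. Most members of each family named here were high in CpG, and the differences between families were not tested.

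The regions with the most tags per kb had another character. The first 3 lay between 19784401 and 20020800 on chromosome 8, with 62.9 to 86.2 RPM per kb over 1000 to 1200 bp. They were followed by a region between genes on chromosome 19, with 949 H3K4me3 tags and 60 input tags. After these came Thoc1, of mRNA export, with 47.5 RPM per kb, the phosphatase subunit Smek2 with 45.6, the proteasome activator Psme3 with 44.4 and the mitochondrial translocase Timm22 with 42.9. Smek2, Psme3 and Timm22 lie on chromosome 11, whose input was 1.51 times the autosomal median.

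Lineage markers were then read from 27 lists of genes, against the 50.8% of all genes that were marked. Most are transcription factors or marker proteins of a cell type, and a place in a list does not mean restriction to it. Some genes, such as Pax6, Sox9 and Sox10, stand in more than 1 list. All 19 neural progenitor genes that could be placed were marked, 11 of them broadly, and 19 of 20 neuronal genes, 6 of them broadly. In the other lists between 0% and 83.3% of genes were marked. The lists differ in CpG class, and among all genes of the high class 86.1% were marked and 5.28% broadly. Of list members of the high class, all 18 progenitor genes, all 16 neuronal genes, all 9 genes of fibroblasts and matrix and all 3 of adipocytes were marked, while 5 of 13 genes of simple epithelium, 0 of 8 germ cell and 0 of 4 liver genes were.

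**Figure D4:**
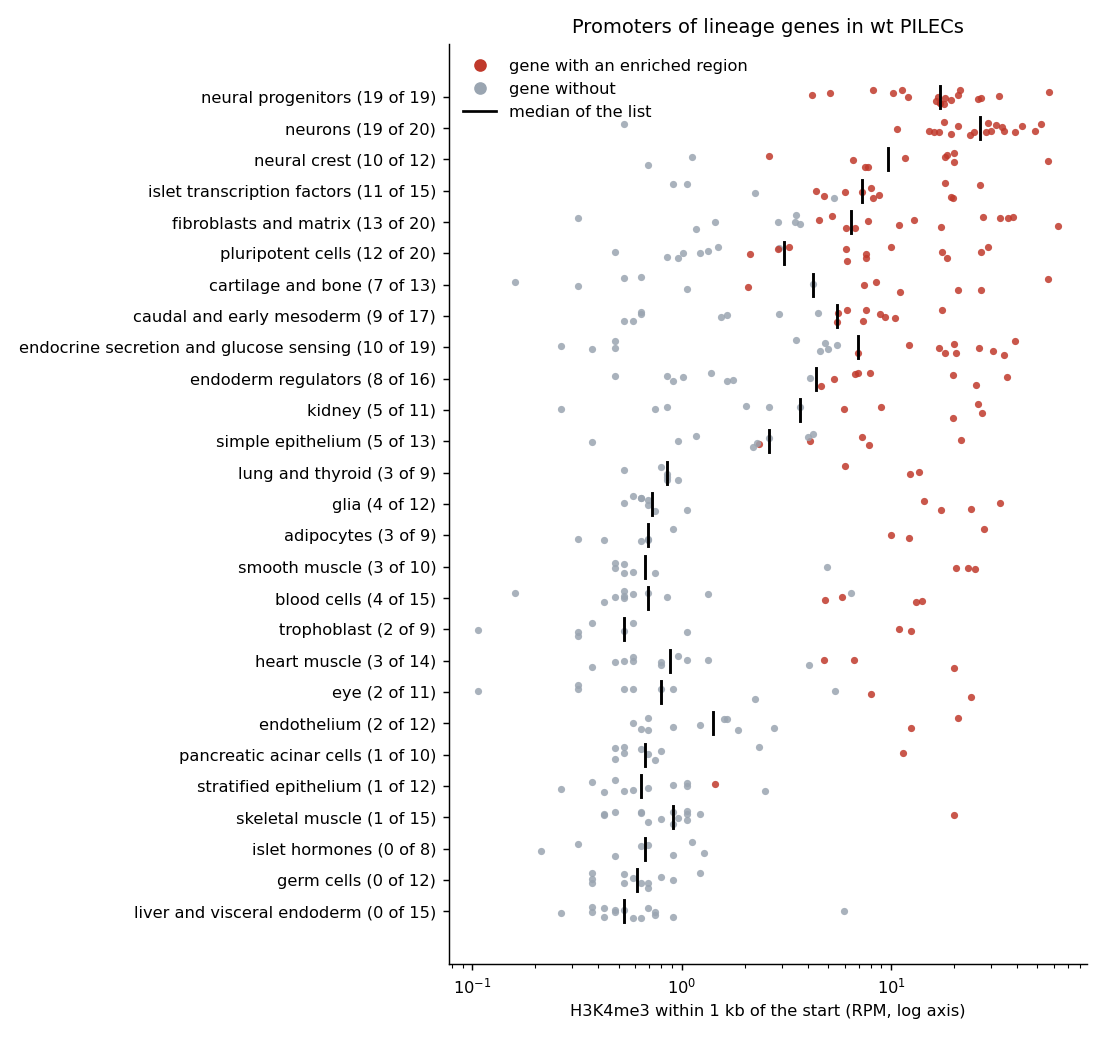
H3K4me3 within 1 kb of the start (RPM, log axis) for each gene of 27 lineage lists in wt PILECs, red where the gene had an enriched region, with the median of each list as a black bar and the number marked in brackets. Neural progenitor and neuronal genes lie at medians of 17.2 and 26.7 RPM, and the 8 islet hormone genes at 0.666 RPM, among the unmarked genes.

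Among progenitor genes Dll1, the Notch ligand of neurogenic cells, had the highest level, with 1064 tags, 56.7 RPM and 13 input tags. Zic1, a dorsal neural factor, followed with 616 tags and a region of 8600 bp. The Notch target Hes5 had 502 tags and Nes, the intermediate filament of neural stem cells, 394. The lowest 2, Pax7 and Neurog1, had 79 and 96 tags and regions of 1200 and 1000 bp, still above their inputs of 15 and 24 tags.

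Neuronal genes covered structure, transmission and RNA binding. The adhesion molecule Ncam1 had 981 tags, Tubb3 914, the synaptic calcium sensor Syt1 794 and Mtap2, the dendritic microtubule protein, 735. Rbfox3, the splicing factor used as a nuclear marker of neurons, had 595 and the release protein Snap25 563. The only unmarked member was Th, the dopamine synthesis enzyme, with 10 tags against 17 in the input. The lowest marked member was Dcx, with 201.

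Lists of transmitter types, chosen after these values had been seen, are given by their counts, and the differences between them were not tested. Of 12 genes of GABA neurons, all high in CpG, 9 were marked (75%, against 86.1% of the class), led by Gad2 (445 tags, 5400 bp), Gad1 (394 tags, 7600 bp) and the factor Dlx2 (313 tags). Of 9 genes of glutamate neurons 6 were marked, led by the receptor subunits Gria2 (480 tags) and Grin2b (455 tags), with the vesicular transporter Slc17a6 at 284 tags in a region of 7800 bp and its relatives Slc17a7 and Slc17a8 unmarked at 46 and 12 tags. Of 12 genes of dopamine, serotonin and acetylcholine neurons 5 were marked, led by the factor Nr4a2 with 726 tags, and the enzymes Th, Tph2, Dbh and Ddc had 9 to 21 tags and no region. Of 16 synaptic vesicle and adhesion genes 15 were marked, with Nlgn1 (8 tags) as the exception. Among high CpG members the marked numbers were 6 of 7 for glutamate, 5 of 8 for dopamine, serotonin and acetylcholine, and 13 of 13 for synaptic genes.

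Regulators of the regions of the neural tube, chosen in the same way, were nearly all high in CpG, and their marked shares, of 18 of 20 in each list, lay near the 86.1% of that class. In the forebrain and midbrain list 10 of 20 were broad, and in that of the hindbrain and spinal cord 4 of 20, against 5.28% of all high CpG genes. In the first list the marked genes included Otx1 with 497 tags, Emx2 with 402 and En1 with 323. Only Nkx2-1 and Barhl1, with 18 and 77 tags, were not. The marked regulators of the hindbrain and spinal cord included Egr2 with 316 tags, Pax3 with 315 and Hoxb8 with 203, while Gbx2, with 28 tags, was among those that were not.

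Of 40 Hox entries, 38 of them high in CpG, 26 were marked (65%), against 86.1% of all high CpG genes. Of the 13 entries of paralogue groups 1 to 4, 10 were marked, of the 15 of groups 5 to 9, 14 were marked, and of the 12 of groups 10 to 13, 2 were marked. The median levels were 6.34, 8.26 and 2.05 RPM, and the differences between the groups were not tested. By cluster 10 of 12 HoxA, 9 of 10 HoxB, 4 of 9 HoxC and 3 of 9 HoxD entries were marked. The highest was Hoxb7 with 269 tags and the lowest Hoxc12 with 13. The HoxB cluster lies on chromosome 11, whose input level is given below. In the annotation Hoxa3 has 2 entries.

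The cells are labelled as islet-like, and their islet genes fell into distinct groups. None of the 8 hormone genes was marked. Ins1 had 4 tags and its input 18, Ins2 17 and 8, Gcg 6 and 15, Iapp 13 and 11, Ppy 12 and 21, and Sst, the highest, 24 and 13. The levels ran from 0.213 to 1.28 RPM, within the range of the unmarked genes, whose median was 0.533 RPM. Only 2 of the 8 promoters were high in CpG. By RT-PCR the study reports low to moderate transcript levels of Ins1, Ins2, glucagon and Iapp in differentiated cells, and staining with a C-peptide antibody. An unmarked promoter in this bulk sample is therefore not read here as a silent gene.

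Of 15 islet transcription factors 11 were marked. All 7 that also stand in a neural list were marked, counting lists added after values were seen, and 4 of the 8 that stand in none. This difference was not tested. Of the 13 with high CpG promoters 10 were marked (76.9%), against 86.1% of all such genes, and 3 were broad (23.1%), against 5.28%. Among them were Myt1 with 371 tags, Pax6 with 362 in 6800 bp, and Insm1 with 340. Isl1, Mafa, Neurod1, Nkx6-1 and Nkx2-2 had 154, 150, 136, 113 and 82 tags. Pdx1, Pax4 and Neurog3 were unmarked with 20, 17 and 42 tags, and Rfx6 had 100 tags and 10 in the input but no region.

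Proteins of regulated secretion, many of which neurons and endocrine cells share, were marked in 10 of 19 cases (52.6%), near the 50.8% of all genes. The 10 included 9 of the 13 members with high CpG promoters (69.2%, against 86.1% of that class). Among the 10 were the prohormone processing enzymes Cpe (732 tags) and Pcsk2 (493 tags), the vesicle proteins Rab3a (651 tags) and Stx1a (575 tags), and the granins Chga (383 tags) and Chgb (341 tags). The members with the fewest tags, Slc2a2, a glucose transporter, Slc30a8, a zinc transporter, Ucn3 and G6pc2, had 9, 5, 9 and 7 tags and promoters of low or intermediate CpG. The potassium channel subunit Kcnj11 had 104 tags and no region, although marked genes such as Nkx2-2 had fewer tags. Of 10 acinar genes only Ptf1a, which the pancreas shares with the hindbrain and retina, was marked, with 214 tags, and the amylase gene Amy2a5 had 0 tags in both libraries, so that uniquely placed reads did not reach its start and its state was not measured.

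Of 16 endoderm regulators 8 were marked, near the share of all genes, and these were 8 of the 12 with high CpG promoters (66.7%, against 86.1% of the class). They were led by the receptor Cxcr4 (670 tags) and the factors Prox1 (479 tags) and Onecut1 (370 tags), which neural tissue also uses. Foxa2 and Foxa1 had 100 and 126 tags in regions of 1400 and 1200 bp. Sox17, Hhex, Hnf4a and Cdx2 had 17 to 31 tags and no region. Of 15 genes of liver and visceral endoderm 0 were marked, with Afp at 11 tags and Alb at 7. Of 13 genes of simple epithelium, all with high CpG promoters, 5 were marked, and the E-cadherin gene Cdh1 stood at 147 tags, Epcam at 137 and the keratins Krt8 and Krt18 at 22 and 18.

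Of 20 genes of fibroblasts and matrix 13 were marked: Vim, an intermediate filament gene that neural progenitors use too, had 1182 tags, Fbn1 721, Fn1 676 and Twist1 619. The collagen genes Col1a1, Col1a2 and Col3a1, with intermediate CpG, had 204, 126 and 115 tags and regions of 1200 to 1800 bp. Of 12 neural crest genes, all high in CpG, 10 were marked (83.3%), near the share of the class, with Sox9 at 1052 tags and Sox10 among the unmarked at 13. Of 12 glial genes 4 were marked (33.3%, against 50.8% of all genes). These were 4 of the 6 with high CpG promoters (66.7%, against 86.1% of the class). The glutamate transporters Slc1a2 and Slc1a3 had 622 and 453 tags, while Gfap and Aqp4 had 12 and 13.

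Most genes in the lists of muscle, vessels, blood and germ cells were unmarked, in part with promoters of low or intermediate CpG. High CpG members were marked in 0 of 3 cases for skeletal muscle, 3 of 7 for heart and 2 of 3 for smooth muscle. For endothelium, blood and germ cells the numbers were 2 of 7, 4 of 5 and 0 of 8, against 86.1% of all high CpG genes. Only Mef2c of 15 skeletal muscle genes was marked, and neurons use that gene too. Of 14 heart genes 3 were marked, and of 10 smooth muscle genes 3. Marked too were 2 of 12 endothelial genes (Kdr and Flt1) and 4 of 15 blood genes, but 0 of 12 germ cell genes. Dazl, the highest, had 23 tags and Ddx4 12. In the list of stratified epithelium Lor counted as marked, since a region lay within 1 kb of a start, but held only 27 tags there, as many as its input.

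Most pluripotency genes stood low in wt PILECs. Of 20, 12 were marked, and of the 12 high CpG members 10 were (83.3%), near the 86.1% of that class. The median of the marked members was 7.59 RPM, against 33.7 RPM for all marked genes and 8.20 RPM for marked islet transcription factors. Pou5f1 had 61 tags, Nanog 54 and Esrrb 40, and Utf1 116. Klf4, Sox2, Klf2 and Sall4, which differentiated cells use as well, were highest with 546, 503, 346 and 329 tags. Zfp42, Tdgf1 and Dppa5a had 25, 28 and 9 tags and no region.

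Next to wt mESCs these values can be placed, with the limit that each side is 1 library and that of wt mESCs is far smaller. Of all genes 8887 were marked in wt mESCs (33.9%). The level was called higher in wt PILECs, by 2-fold or more and with the 95% interval of the log2 ratio above 0, at 1208 of 26212 genes (4.61%), and lower by the same rule at 2806 (10.7%). Over the 14913 genes with at least 10 tags in both libraries the median log2 ratio was -0.03. Of 20 neuronal genes 10 were higher and 1 was lower, of 19 progenitor genes 5 were higher and 0 lower, and of 20 genes of fibroblasts and matrix 6 were higher and 2 lower. Of 20 pluripotency genes 0 were higher and 18 lower, and of 13 genes of simple epithelium 0 were higher and 13 lower. Islet transcription factors were split, with 3 of 15 higher and 5 lower.

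**Figure D5:**
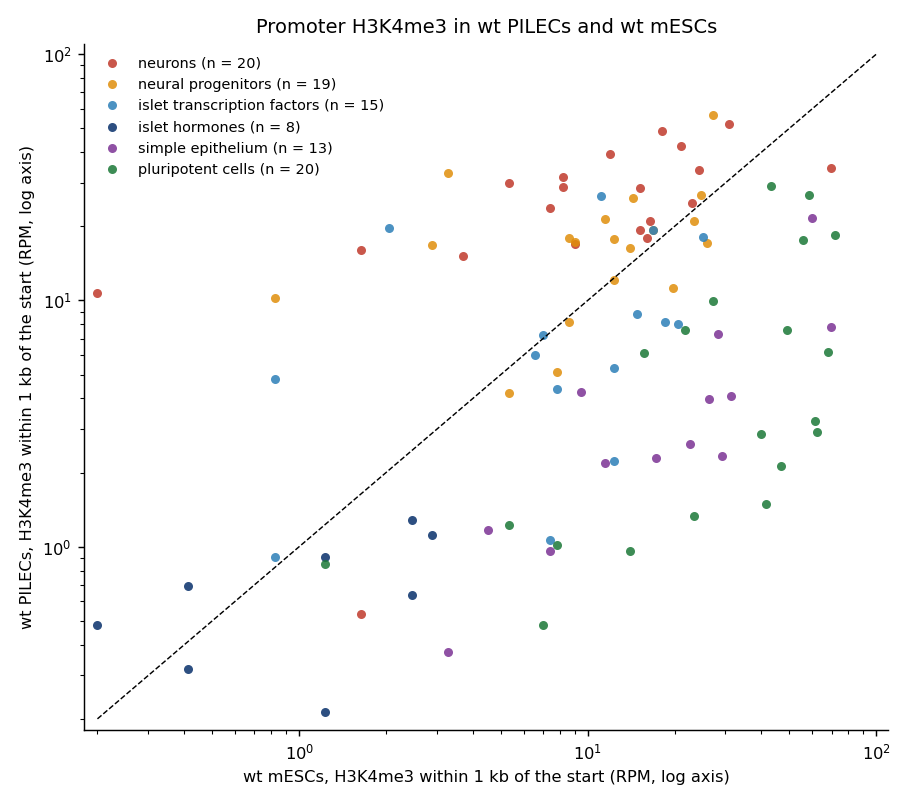
H3K4me3 within 1 kb of the start in wt mESCs (x axis) and wt PILECs (y axis), in RPM on log axes, for the genes of 6 lists, with equal levels on the dashed line and values below 0.2 RPM drawn at 0.2. Most neuronal genes lie above the line, and all genes of simple epithelium lie below it, with Cdh1 at 69.9 and 7.83 RPM.

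The neuronal gene with the largest ratio among those with a tag in both libraries was Syp, a synaptic vesicle protein, at 16.1 RPM against 1.64 (4 tags) in wt mESCs, a log2 ratio of 3.29 (1.92 to 5.18). Snap25 stood at 30.0 against 5.35 RPM (log2 ratio 2.49, 1.70 to 3.41), Rbfox3 at 31.7 against 8.22 (1.95, 1.31 to 2.67) and Tubb3 at 48.7 against 18.1 (1.43, 0.99 to 1.90). Dcx had 10.7 RPM and no tag in wt mESCs, where 3 tags are worth 1.23 RPM, and the lower limit of its log2 ratio was 2.81. Gad1 and Neurod1 did not pass the rule, with 0.35 (-0.12 to 0.86) and 0.05 (-0.68 to 0.87).

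In the other direction Pou5f1 stood at 3.25 RPM against 61.3 RPM (log2 ratio -4.24, -4.69 to -3.80), Esrrb at 2.13 against 46.9 (-4.46, -5.02 to -3.93) and Cdh1 at 7.83 against 69.9 (-3.16, -3.49 to -2.83). Islet regulators without a region in wt PILECs were among them: Pdx1 stood at 1.07 against 7.40 RPM (-2.80, -3.79 to -1.79) and Neurog3 at 2.24 against 12.3 (-2.46, -3.17 to -1.74). Neither had a region in wt mESCs. The marked factors Isl1 (-1.17, -1.66 to -0.66) and Mafa (-1.36, -1.83 to -0.87) were lower too, while 3 of the 15 islet factors were higher. Over all protein-coding genes with at least 10 tags in both libraries the largest ratios up were at Lphn3, an adhesion receptor of neurons, with 66.7 against 4.93 RPM, at the growth factor Ptn with 41.3 against 4.11, and at Srgap3 with 51.9 against 6.17. The largest down were at Rbmxl2 (1.28 against 43.6 RPM), at Tdh, threonine dehydrogenase (1.07 against 34.5), and at Fgf17 (0.799 against 22.6).

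When the wt PILEC library was thinned to the number of tags of wt mESCs, 9901 genes were marked, 7751 of them also in wt mESCs, with 2150 marked in thinned wt PILECs alone and 1136 in wt mESCs alone. With the H3K4me3 totals equal 17 of 20 neuronal genes were marked against 7 in wt mESCs, 11 against 7 of 19 progenitor genes, 4 against 5 of 15 islet factors, 3 against 16 of 20 pluripotency genes and 0 against 8 of 13 genes of simple epithelium. Of the 20 forebrain and midbrain regulators 6 were marked against 4, and of the 20 of the hindbrain and spinal cord 3 against 3. Broad regions numbered 109 against 49. The inputs were not thinned, and wt mESCs had 11.3% of tags at a position and strand already seen, so the numbers of distinct tags were not matched.

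Menin-null PILECs, sequenced to a depth near that of wt PILECs, had 12815 marked genes (48.9%). By the same 2-fold rule 336 of 26212 genes (1.28%) were lower in menin-null than in wt PILECs, and 326 were higher. None of the 20 neuronal, 19 progenitor, 15 islet factor or 8 hormone genes was among the lower ones. In the list of hindbrain and spinal cord regulators, which was chosen after values were seen, 8 of 20 were, and 6 of these 8 were Hox genes, such as Hoxb8 at 0.905 against 10.8 RPM. The hormone genes stood at 0.339 to 1.24 RPM in menin-null PILECs.

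Away from starts, 657 regions lay over 5 kb from every annotated start of any gene type, 478 between genes and 179 within a gene. They were narrower and weaker than regions at starts, with a median of 1400 bp and 13.1 RPM against 1800 bp and 34.4 RPM, and 20 were broad. They were still rich in CpG: 469 of 657 (71.4%) held a CpG-rich window, against 93.6% of regions at starts. A region of wt mESCs overlapped 223 of them (33.9%) and 7086 of the 11486 regions at starts (61.7%). For menin-null PILECs the shares were 72.5% and 94.4%. The wt mESC library is far smaller, and with wt PILECs thinned to its total only 218 regions away from starts were found, so the lower overlap of these weaker regions cannot be told apart from an effect of depth.

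The region away from starts with the most tags, chr8:46019401-46024800, lay between genes within 30 kb of Fat1 and had 2050 H3K4me3 and 55 input tags, with 254 tags in wt mESCs. Its 200-bp window with the most tags, 163 (chr8:46023601-46023800), and that of the next region, near Zfp541, with 235 (chr7:16633801-16634000), are printed from the plus strand of mm9 with CG in capitals, to show how CpG content differed between such regions.
Window near Fat1: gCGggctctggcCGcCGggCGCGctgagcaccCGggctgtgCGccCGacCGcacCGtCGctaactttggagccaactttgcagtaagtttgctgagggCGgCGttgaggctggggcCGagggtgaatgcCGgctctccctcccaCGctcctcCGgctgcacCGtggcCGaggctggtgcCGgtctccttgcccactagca
Window near Zfp541: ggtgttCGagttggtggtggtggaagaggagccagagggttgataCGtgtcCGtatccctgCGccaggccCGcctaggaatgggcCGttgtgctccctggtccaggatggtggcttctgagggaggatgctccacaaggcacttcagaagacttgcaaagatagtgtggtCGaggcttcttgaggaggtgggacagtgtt
They held 20 and 7 CG dinucleotides, with observed to expected ratios of 0.816 and 0.461. The regions near Zfp541 and Chd2, on chromosome 7, had 1885 and 1718 tags. Among the first 10, the regions within Eif4e3, Ptprn2 and Kcnq1 had 1439, 1424 and 1391 tags.

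Chromosomes 11 and X stood apart in both the H3K4me3 level and the input. In the input of wt PILECs chromosome 11 held 576 RPM per Mb, 1.51 times the autosomal median of 381, and the other autosomes lay between 0.903 and 1.12 times. In wt mESCs the ratio for chromosome 11 was 1.32 and that for chromosome 8 1.296. The median level of marked protein-coding genes was 46.2 RPM on chromosome 11, 1.37 times the autosomal median of 33.8, and 31.7 to 39.8 RPM on the other autosomes, with 18.9 RPM on chromosome X. Genes named above from chromosome 11 include Kdm6b, Bahcc1, Lhx1, Sox9, Otx1, Rbfox3, Col1a1, Psmb3, Psme3, Smek2, Timm22, Sfi1 and the HoxB genes, and the part of the chromosome in their levels was not tested. Chromosome 11 held 8.47% of all regions and 12.2% of the broad ones. The share of high CpG protein-coding genes that were marked lay between 77.9% and 90.1% on all autosomes.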

How the data were processed

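H3K4me3 and input chromatin were sequenced in 8 libraries, 1 per condition, of which those of wt PILECs are described and those of wt mESCs and menin-null PILECs are set beside them. Per the methods of the study, the authors aligned 36-bp reads to mm9 and kept unique hits with at most 2 mismatches. They deposited 1 line per tag with its position, strand and mismatches, and with a whole number that no source used here names, taken as a score and not used. Between 1.04% and 1.81% of tags listed more than 2 mismatches and were kept. Tags were moved 125 bp to the fragment middle. Genes came from GENCODE M1, and of 428 symbols in the lists 425 were placed, older symbols included. Of several starts, the one with the highest summed RPM over wt PILECs, wt mESCs and menin-null PILECs was used. Ratios carry exact conditional binomial 95% intervals. The genes and lists were chosen with earlier results of these data known, and 6 lists and 4 families were added after values were seen. Genes named were members of the lists, the 10 widest and strongest regions, the largest exceptions and ratios, and genes the study measured, and others, such as family members and further wide regions, were picked after their values were seen. Region calling was tested on simulated tags. Some results are not reported here. Python 3.11.15, numpy 2.4.6, scipy 1.17.1 and matplotlib 3.10.9 were used.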

Additional observations from a re-analysis of the deposited data

How the results depend on the processing

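In all 15 alternatives were computed. Of 177 values of the main counts under them, 159 stayed within 1.5 times the reported value. Some of these could not move, such as the number of regions under other CpG limits or other distances to a start. Requiring 2000 bp left 5952 regions, 7141 marked genes (6879, 240 and 22 in the high, intermediate and low CpG classes) and 154 regions away from starts, and a shorter minimum gave 1092 of the last. Thinning to the wt mESC total left 109 broad regions, 218 away from starts, 309 intermediate and 20 low CpG genes, 4 islet factors and 11 neural progenitor genes. A window threshold of 1e-03 gave 1010 broad regions. Low CpG genes numbered 99 with a 2 kb distance and 25 with the region over the start, and CpG limits of 0.75 and 0.48 put 1815 marked genes in the intermediate and 129 in the low class. Of 345 values of the other lists 46 moved, 38 of them down. The 8 hormone genes stayed at 0 and the 2-fold counts against wt mESCs within 1.5 times in the alternatives run. No paired analysis was possible because each condition has 1 library. Thinning also left 0 marked genes of simple epithelium, stratified epithelium, endothelium, acinar cells, skeletal muscle, eye, and lung and thyroid.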

Other observations

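Some gene types outside the 3 used in the report had members with a region within 1 kb of a start. Whether these regions belong to a neighbouring promoter was not tested. Of 1577 miRNA entries 150 were marked (9.51%), 29 of them broadly, with a median width of 2600 bp, of 1552 snoRNA entries 144 (9.28%) and of 5201 pseudogenes 107 (2.06%). None of 355 immunoglobulin V genes was marked. Of the 781 lincRNAs with high CpG promoters 655 were marked (83.9%), against 86.8% of such protein-coding genes, and 76 (9.73%) had a broad region, against 4.99% of the protein-coding ones. Of all regions 2299 lay within 1 kb of starts of 2 or more genes, such as the wide region at Sox2 and Sox2ot. Whether the broad regions at lincRNAs belong to a neighbouring promoter was not tested either.

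Imprinted genes that the study measured stood at different levels in wt PILECs. Meg3, a maternally expressed non-coding RNA, had 751 tags and 14 in the input, and Mest 641 and 23. Dlk1 had 56 tags and no region, Dio3 97 tags and a region of the minimum length of 1000 bp, and Rtl1 10 tags against 13 in the input. Men1 itself had 867 tags in a region of 2000 bp. Of the protocadherin genes arranged in clusters 4 of 24 were marked, Pcdhgc5 with 872 tags and Pcdha11 with 515, while the 20 others held 10 to 69 tags.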
